A study of Caenorhabditis elegans with 54 samples.

Results

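C38D9.2, ZC15.3, F55B11.6, F16B4.6, W09B7.1, W09B7.2 and F07B7.1 are 7 protein-coding genes of the nematode Caenorhabditis elegans, known by their sequence names only, and no role is given to any of them here. They were named because their mRNA was near silent or low with mut-16 and hrde-1 both intact and high in strains without mut-16. Their mRNA was also raised in the strain without hrde-1, in which mut-16 is intact. The small RNAs of the genes were then followed in the same strains. They are 7 of the 46003 gene names in the mRNA and small RNA files. The mRNA values with and without mut-16, and those without hrde-1, therefore chose the genes and are given below as a description, without a test. W09B7.1 and F07B7.1 had equal counts in 24 of 24 mRNA and 24 of 24 small RNA libraries, with equal meaning within 0.5 counts or 1%. The 7 names thus hold 6 separate measurements, and counts and medians over the 7 names below include both W09B7.1 and F07B7.1. W09B7.2 was in the same way equal in all 24 libraries of each assay to F07B7.2, which is not one of the 7. In the RefSeq gene order of assembly WBcel235, W09B7.2 lies beside W09B7.1 and F07B7.2 beside F07B7.1, so the copies form matching pairs whose reads the deposited counts do not separate. The animals were sampled whole, so the tissue in which the genes are transcribed, germline or other, was not measured.

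Small RNAs of the 22G type are made by RNA-dependent RNA polymerases on target transcripts and carry a 5′ guanosine. MUT-16 is the scaffold protein of the mutator foci, the perinuclear germline bodies in which many of them are amplified. HRDE-1 is a nuclear Argonaute of the germline that binds such small RNAs and directs transcriptional silencing and histone H3 lysine 9 methylation at the genes they match, across generations. PRG-1 is the Argonaute that binds piRNAs, which can start this amplification, and ERGO-1 is the Argonaute of a class of 26G-RNAs that starts it on another set of targets.

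Small RNA and mRNA were sequenced from 8 strains of day 1 adults grown at 20 °C for 64 h, with 8000 animals per sample and 3 libraries per strain and assay. The small RNAs had been cut from a gel at 18 to 30 nt, and the mRNA selected on oligo(dT) beads. Of these strains 3 carry a deletion and an intact mut-16: eri-6[e-f]{delta}(cmp261), sosi-1{delta}(cmp262), and cmp263, which lacks both sosi-1 and eri-6[e-f] and is called the double deletion. Together they are called the deletion strains. The same deletions combined with mut-16(pk710) give the eri-6[e-f] mut-16 strain, the sosi-1 mut-16 strain and the triple mutant, called together the mut-16 strains. The other two are prg-1(n4357); hrde-1(tm1200), called the hrde-1 double mutant, and prg-1(n4357); ergo-1(tm1860), called the ergo-1 double mutant. Both lack prg-1, and they differ in hrde-1 and in ergo-1 at once, so the parts of the 2 genes in a difference between them cannot be told apart. A separate set holds 6 small RNA libraries of the single mutants prg-1(n4357) and ergo-1(tm1860), whose labels name both 20 °C with 68 h and 25 °C with 48 h without saying which applies. Neither wild type nor mut-16 alone is analysed here. The labels do not say whether the 3 libraries of a strain came from separate cultures, so a p-value measures only the spread between these libraries.

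Total counts per library ranged from 8002988 to 42010626 for small RNA and from 13217989 to 93976553 for mRNA in the 8 strains, and from 10939270 to 14728372 in the separate set. In the hrde-1 double mutant, small RNA replicate 1 had 19% of its counts on the single entry eri6.1, against 0.0587% and 0.0785% in its other 2 replicates. Small RNA replicate 3 of the ergo-1 double mutant is described in one label as mRNA, but its log2 CPM (counts scaled to a common library size) correlated at 0.981 to 0.989 with those of the other 2 replicates over the features tested. Small RNA results on these strains are given below with all libraries and without these libraries. The mRNA of ergo-1 lay between 2.81 and 4.15 CPM in the ergo-1 double mutant and between 32.8 and 338 CPM elsewhere. The mRNA of mut-16, prg-1 and hrde-1 in their mutants overlapped that of the other strains, so it does not check those labels. The files do not show the length or first base of the small RNAs, and their counts are called small RNA counts throughout. In whole animals, fewer cells of a type and less RNA per cell cannot be told apart.

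In the deletion strains the mRNA of 6 of the 7 names stayed below 1 CPM in each of the 9 libraries, on the scale normalised by trimmed mean of M values (TMM), and in the mut-16 strains all 7 were far above that. C38D9.2 measured 0.261, 0.1 and 0.806 CPM in eri-6[e-f] and 196, 125 and 102 CPM in the eri-6[e-f] mut-16 strain. It measured 0.495, 0.581 and 0.391 CPM in sosi-1 and 72.5, 98.7 and 89.9 CPM in the sosi-1 mut-16 strain, and 0.641, 0.626 and 0.726 CPM in the double deletion and 216, 215 and 195 CPM in the triple mutant. The hrde-1 double mutant held 90.9, 60 and 49.7 CPM of it, and the ergo-1 double mutant 0.22, 0.176 and 0.23 CPM. High and low strains of C38D9.2 were separated by a wide gap, from 0.806 CPM at most to 49.7 CPM at least.

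ZC15.3 measured 0.0653, 0.1 and 0.0806 CPM in eri-6[e-f], each from a single count, so no fold is given there. In the eri-6[e-f] mut-16 strain it measured 111, 101 and 89.3 CPM, in the sosi-1 mut-16 strain 56.9, 61.2 and 52.3 CPM, and in the triple mutant 108, 106 and 95.5 CPM. Between these extremes stood the hrde-1 double mutant, with 27.4, 23 and 14 CPM, and the ergo-1 double mutant had 0.0628, 0.0878 and 0.0659 CPM. In sosi-1 it measured 0.231, 0.387 and 0.0977 CPM and in the double deletion 0.35, 0.464 and 0.0605 CPM. Every library of the hrde-1 double mutant lay below every library of the mut-16 strains for ZC15.3.

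F55B11.6 measured 30.6, 31.1 and 29.9 CPM in the eri-6[e-f] mut-16 strain, 15.9, 15.2 and 13.8 CPM in the sosi-1 mut-16 strain and 28.3, 26.8 and 28.3 CPM in the triple mutant. In the 9 libraries of the deletion strains it lay between 0 and 0.363 CPM. Its count was 0 in eri-6[e-f] replicate 3, which allows a level of up to 0.242 CPM (3 counts; counting error only). In the hrde-1 double mutant it had 14, 10.9 and 16.2 CPM, and in the ergo-1 double mutant 0.0628, 0.0585 and 0.0659 CPM.

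F16B4.6 measured 22.7, 23 and 26.9 CPM in the eri-6[e-f] mut-16 strain, 26.9, 18.7 and 22.2 CPM in the sosi-1 mut-16 strain and 15.4, 13.9 and 14.8 CPM in the triple mutant. Unlike the other genes it had its lowest level among the mut-16 strains in the triple mutant. Its 9 values in the deletion strains lay between 0.0775 and 0.261 CPM. The hrde-1 double mutant had 5.13, 8.14 and 6.72 CPM, below every mut-16 library, and the ergo-1 double mutant 0.157, 0.263 and 0.0329 CPM.

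W09B7.1 and F07B7.1 each measured 64.9, 58.2 and 52.9 CPM in the eri-6[e-f] mut-16 strain, 30.8, 33.4 and 30.8 CPM in the sosi-1 mut-16 strain and 48.4, 45.7 and 44.4 CPM in the triple mutant. Among the mut-16 strains this pair had its lowest mean in the sosi-1 mut-16 strain. The hrde-1 double mutant had 32.2, 30.5 and 16.4 CPM. The deletion strains lay between 0.198 and 0.605 CPM, and the ergo-1 double mutant lay below all of them at 0, 0.0585 and 0.0659 CPM. The count of 0 allows up to 0.0941 CPM.

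W09B7.2 was the one name above 1 CPM of mRNA in every deletion strain library, on a scale that is not corrected for gene length. It measured 2.61, 3 and 3.14 CPM in eri-6[e-f], 1.55, 3.76 and 4.11 CPM in sosi-1 and 7.77, 7.77 and 5.93 CPM in the double deletion. The ergo-1 double mutant lay below all of these, with 0.314, 0.293 and 0.132 CPM. In the eri-6[e-f] mut-16 strain it measured 179, 114 and 119 CPM, in the sosi-1 mut-16 strain 75.8, 86.6 and 79.8 CPM, in the triple mutant 144, 131 and 132 CPM and in the hrde-1 double mutant 114, 92.5 and 114 CPM. The hrde-1 double mutant thus lay within the range of the mut-16 strains for W09B7.2.

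All 7 names had every mut-16 library above every library of the matching deletion strain. The same held for 22.7% of the 15376 features tested in eri-6[e-f], 23.5% in sosi-1 and 40.7% in the double deletion. All 7 also had every library of the hrde-1 double mutant above every library of the ergo-1 double mutant, as did 37.5% of all features. Since these values chose the genes, nothing is read from the counts. Ratios of mean CPM ran from 19-fold for W09B7.2 in the double deletion to 362-fold for C38D9.2 in eri-6[e-f], over the 17 values with more than 3 counts in the low group. On the log2 scale the ratio of C38D9.2 in eri-6[e-f] ran from 8.03 to 9.61 with single libraries left out, the highest without replicate 3 of eri-6[e-f]. That of F55B11.6 was 8.27 in eri-6[e-f], or 9.26 without its replicate 1, and 7.07 in the double deletion, or 7.87 without its replicate 3. Between the double mutants they ran from 44.1-fold for F16B4.6 to 636-fold for W09B7.1, the latter over only 4 counts in the ergo-1 double mutant. As log2 ratios these were 5.46, or 6.13 without replicate 2 of the ergo-1 double mutant, and 9.31, or 8.72 without its replicate 1. Over the 8 strain means, each gene correlated at 0.970 (W09B7.2) to 0.999 (W09B7.1) with the mean of the genes on the scale log2(CPM + 0.5). Each gene is part of that mean, the values share libraries, and they chose the genes. A high correlation was thus fixed beforehand, and nothing is read from it.

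**Figure D1:**
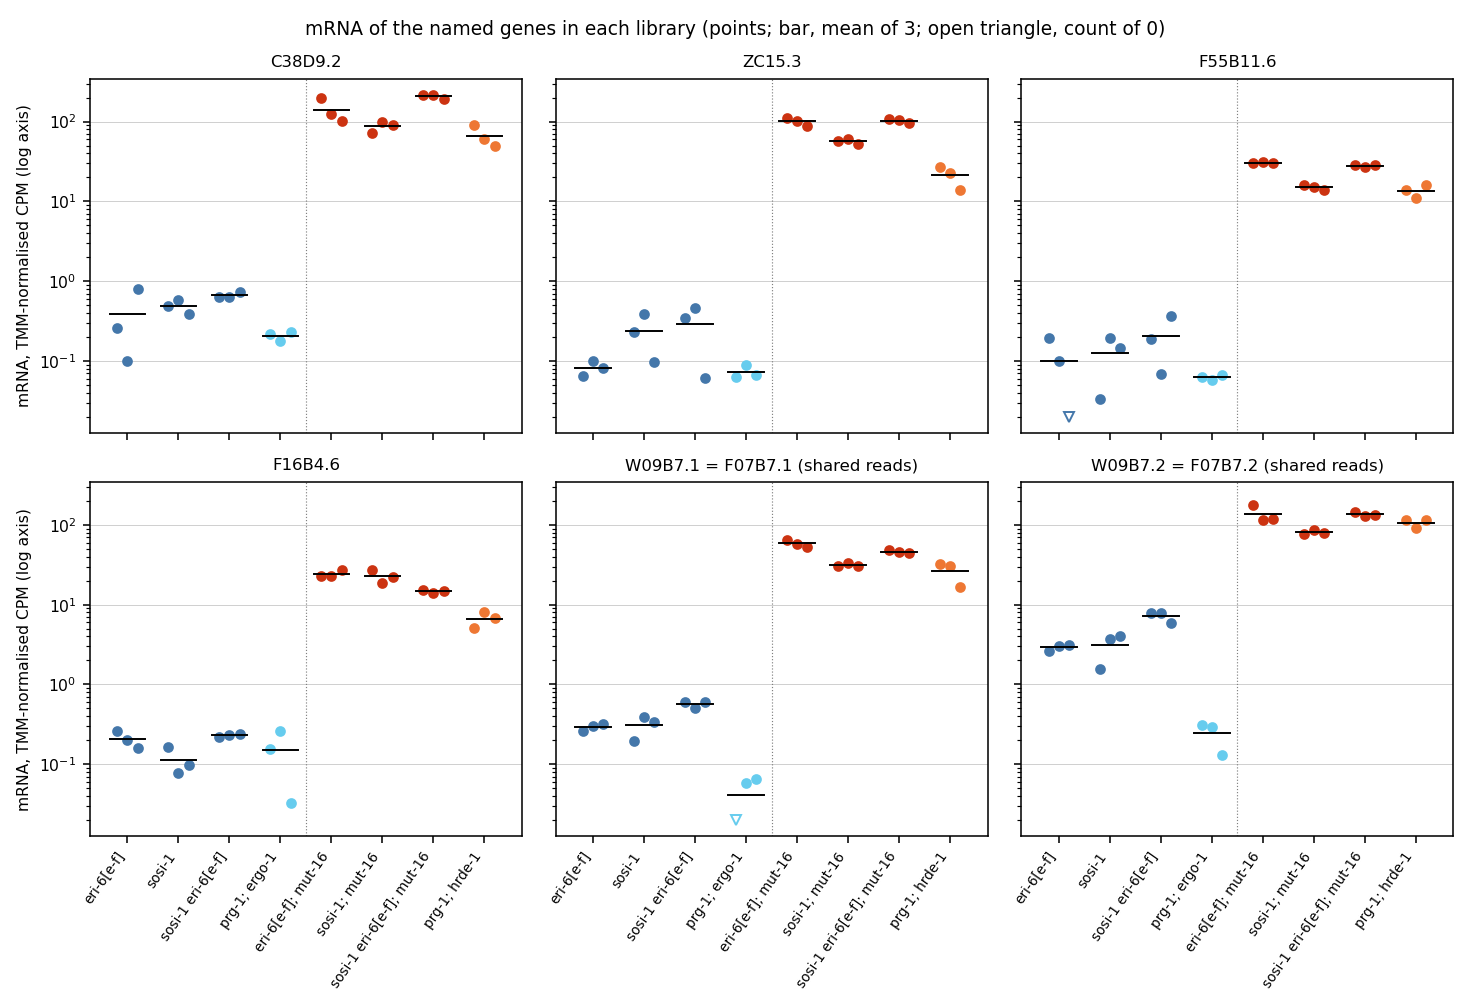
The plot of mRNA by library shows TMM-normalised CPM on a log axis for each gene in the 8 strains, with 1 point per library coloured by kind of strain, a bar at the mean of 3 and an open triangle for a count of 0. For C38D9.2 the 4 strains on the left stay at or below 0.806 CPM and the 4 on the right at or above 49.7 CPM, and W09B7.2 lies between 1.55 and 7.77 CPM in the deletion strains.

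Among the mut-16 strains, a comparison the choice of genes did not use, the sosi-1 mut-16 strain had the lowest means for 6 of the 7 names. Calls required an adjusted p under 0.05, from the quasi-likelihood test of edgeR with Benjamini-Hochberg adjustment over all features, and a change of 2-fold or more. Against the eri-6[e-f] mut-16 strain, 1 of 7 names was called lower in the sosi-1 mut-16 strain, where 1.12% of all features were called lower. This was F55B11.6, with a log2 fold change of -1.03 ± 0.23 (SE) and an adjusted p of 0.0048. The call was lost without replicate 3 of the sosi-1 mut-16 strain (-0.97, adjusted p = 0.0278) and with scaling to library size alone (-0.74, adjusted p = 0.0146). W09B7.1 and F07B7.1 followed at -0.89 ± 0.21, ZC15.3 at -0.82 ± 0.24, W09B7.2 at -0.77 ± 0.24 and C38D9.2 at -0.70 ± 0.26, each with an adjusted p between 0.00676 and 0.0486 and short of 2-fold. With scaling to library size alone the adjusted p rose to 0.127 for ZC15.3, 0.157 for W09B7.2 and 0.322 for C38D9.2, and with the replicate block that of C38D9.2 was 0.0698. F16B4.6 gave -0.10 ± 0.21, with overlapping libraries. No name was called higher, beside 8.32% of all features.

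The triple mutant against the sosi-1 mut-16 strain had 1 of 7 names called higher, beside 8.67% of all features. C38D9.2 was higher by 1.26 ± 0.26 on the log2 scale (adjusted p = 0.000874), from 87 ± 13.3 to 208 ± 11.8 CPM (SD, n = 3). F55B11.6 (0.89 ± 0.23), ZC15.3 (0.86 ± 0.24), W09B7.2 (0.75 ± 0.24) and W09B7.1 with F07B7.1 (0.54 ± 0.21) had adjusted p below the threshold and less than 2-fold. With scaling to library size alone W09B7.1 and F07B7.1 missed the threshold, at 0.44 (adjusted p = 0.113). F16B4.6 stood at -0.62 ± 0.21, the opposite sign, with an adjusted p of 0.0229. None of the 7 was called lower, beside 12% of all features. Against the eri-6[e-f] mut-16 strain, edgeR called 0 of 7 names in the triple mutant, and DESeq2 also called 0. Of all features 5.86% were called lower and 6.13% higher in this comparison. At an unadjusted edgeR p below 0.05 stood F16B4.6, at -0.72 ± 0.21 (adjusted p = 0.0164, less than 2-fold), and C38D9.2, at 0.56 ± 0.26 (adjusted p = 0.0991).

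Small RNA counts on the genes were present in every strain, and fell without mut-16. With mut-16 mutated in eri-6[e-f], 6 of 7 names were called lower, beside 40.8% of the 15380 features tested. In sosi-1 and in the double deletion all 7 were called lower, beside 41.8% and 38.8%. With W09B7.1 and F07B7.1 summed into 1 entry, 5, 6 and 6 entries were called in that order. The median log2 fold change of the 7 names, with both W09B7.1 and F07B7.1 counted, was -1.96, -1.85 and -2.16. That of all features was -0.41, -0.37 and -0.25. The fall differed in size from gene to gene. Between 10.7% and 15.9% of all features had a lower log2 fold change than F16B4.6 and W09B7.1 in these comparisons, and between 39.5% and 49.6% a lower one than W09B7.2.

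F16B4.6 lost most of its small RNA counts. It had 486, 472 and 468 CPM in eri-6[e-f] and 24.4, 20 and 23.4 CPM in the eri-6[e-f] mut-16 strain, a log2 fold change of -4.40 ± 0.07 (adjusted p = 2.53e-23). In sosi-1 it went from 440 ± 18.4 to 26.2 ± 0.859 CPM and in the double deletion from 495 ± 6.09 to 19.9 ± 0.438 CPM (SD, n = 3). Between 4.02% and 5.97% of its level remained in the mut-16 strains.

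W09B7.1 and F07B7.1 each had 399, 393 and 415 CPM of small RNA in eri-6[e-f] against 25, 21.7 and 22.1 CPM in the eri-6[e-f] mut-16 strain. Their log2 fold changes were -4.14 ± 0.09, -4.47 ± 0.09 and -4.58 ± 0.09 in the 3 backgrounds. No library of the mut-16 strains exceeded 25 CPM and no library of the deletion strains was under 356 CPM.

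C38D9.2, ZC15.3 and F55B11.6 fell less and kept more of their small RNA counts. C38D9.2 had 672, 650 and 616 CPM in eri-6[e-f] and 260, 244 and 255 CPM in the eri-6[e-f] mut-16 strain, and between 34.3% and 39.2% of its level remained over the 3 backgrounds. ZC15.3 had 445, 426 and 442 CPM against 169, 139 and 157 CPM, with 29% to 35.3% remaining. F55B11.6 had 222, 210 and 215 CPM against 54.4, 52.9 and 59.2 CPM, with 22.3% to 27.7% remaining. The adjusted p from edgeR was at most 9.58e-13 for these 3 genes in each background. Their falls were not unusual in size, since between 28.1% and 39.3% of all features had a lower log2 fold change.

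W09B7.2 had the smallest change. It measured 162, 153 and 168 CPM of small RNA in eri-6[e-f] and 127, 109 and 120 CPM in the eri-6[e-f] mut-16 strain, a log2 fold change of -0.44 ± 0.08 (adjusted p = 2.64e-05) that did not reach 2-fold. In the other 2 backgrounds it fell by 1.06 ± 0.08 on the log2 scale, just past 2-fold. Those calls were lost with scaling to library size alone, at -0.93 and -0.83, and with no filter on low counts, at -0.96 and -0.99. W09B7.2 was also the name above 1 CPM of mRNA in the deletion strains. With 1 name, a relation between that level and its small RNA change was not tested and none is read.

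**Figure D2:**
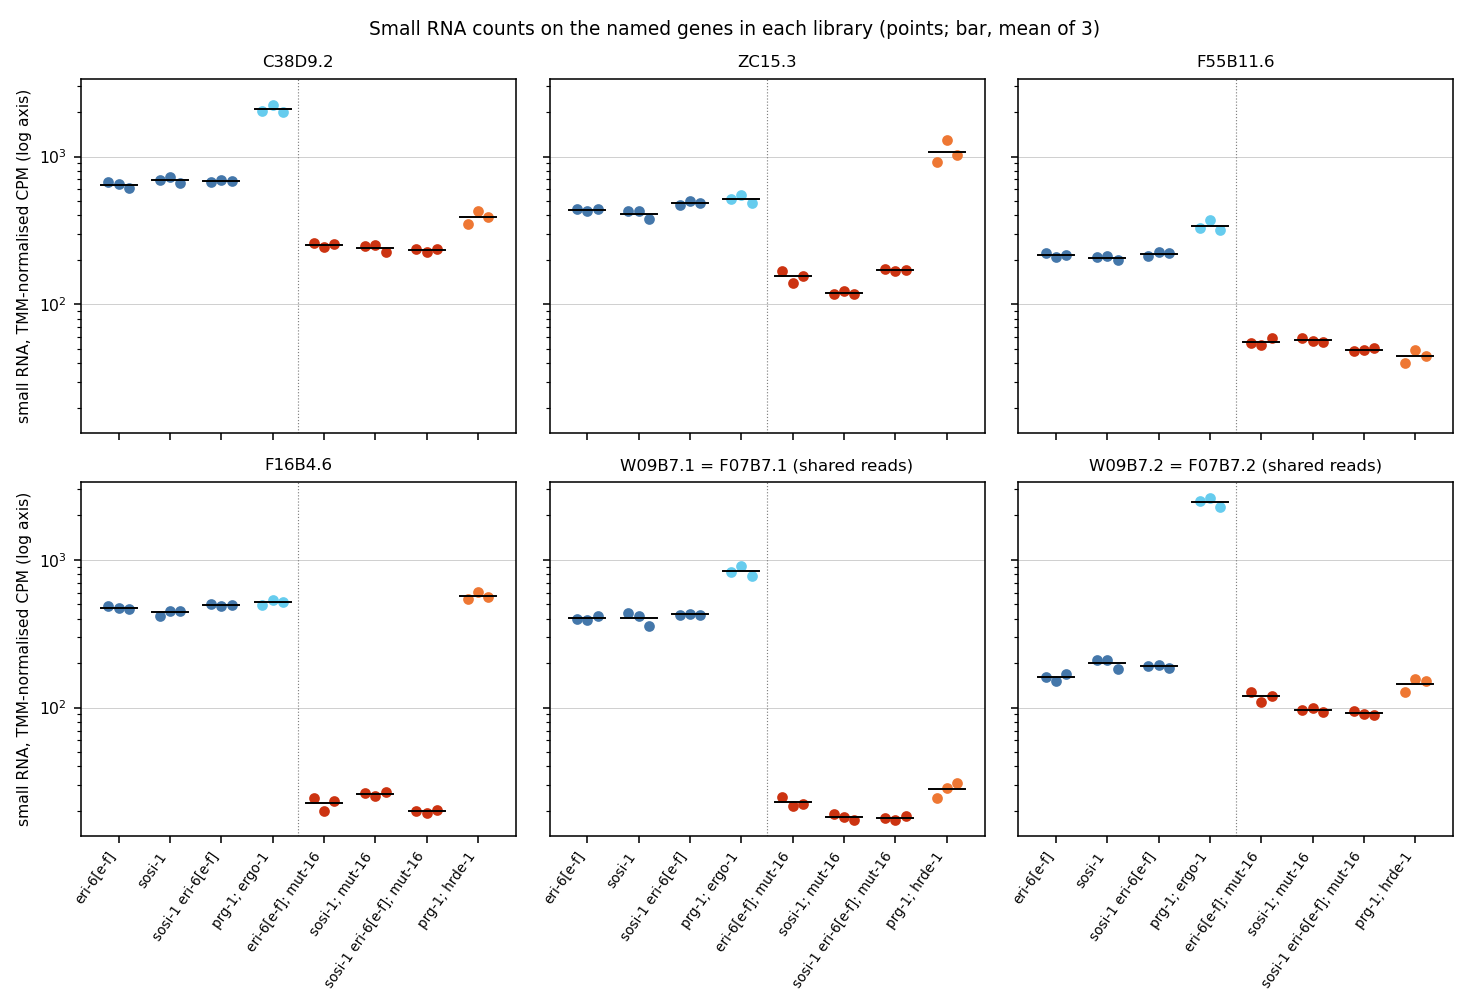
The plot of small RNA by library shows TMM-normalised CPM on a log axis for each gene in the same 8 strains, with 1 point per library and a bar at the mean of 3. F16B4.6 drops from 419 to 502 CPM in the deletion strains to 19.4 to 26.9 CPM in the mut-16 strains but stays at 539 to 610 CPM in the hrde-1 double mutant, whereas W09B7.1 is low in both, at 17.4 to 25 and 24.3 to 31.2 CPM.

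A share of small RNA counts tells of the other small RNAs in the library too. Entries for microRNAs, which are made by another pathway, took 0.0625% to 0.121% of the counts in the deletion strains and 0.173% to 0.282% in the mut-16 strains. Scaling to these counts moved the median of all features by -1.01 to -1.43 on the log2 scale, and each of the 7 names was then called lower in all 3 backgrounds. Under that scaling F16B4.6 gave -5.59, -5.08 and -6.07 and W09B7.2 gave -1.63, -2.09 and -2.48, so W09B7.2 again had the smallest change. Together the 7 names took 0.291% to 0.298% of the small RNA counts in the deletion strains, as strain means, and 0.0684% to 0.0742% in the mut-16 strains. Their share of the mRNA counts was 0.000357% to 0.000695% and 0.0368% to 0.0613%.

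The size of the mut-16 effect on small RNA could be compared between the 3 deletion backgrounds. No name passed both thresholds for a difference between backgrounds in edgeR or in DESeq2, beside 9.58% of all features. By adjusted p alone from edgeR, 5 of 7 names passed, beside 23.9% of all features, with less than 2-fold between the highest and lowest effect. The span was 0.63 for W09B7.2 (adjusted p = 0.000326), 0.57 for F16B4.6 (0.000258), 0.44 for W09B7.1 and F07B7.1 (0.0178) and 0.31 for F55B11.6 (0.0351), on the log2 scale. It was 0.19 for C38D9.2 and 0.28 for ZC15.3, with adjusted p of 0.221 and 0.151. With scaling to library size alone 2 of 7 passed, W09B7.2 (0.00207) and F16B4.6 (0.00784), while F55B11.6 (0.286) and W09B7.1 with F07B7.1 (0.132) did not. With scaling to microRNA counts all 7 had an adjusted p of 1.

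Between the double mutants the small RNA of the genes went apart. Relative to the ergo-1 double mutant, 5 of 7 names were called lower in the hrde-1 double mutant, beside 6.7% of all features, and 1 of 7 was called higher, beside 16.9%. With W09B7.1 and F07B7.1 summed into 1 entry, 5 entries were called in either direction in place of 6. The median over the 7 names, with both W09B7.1 and F07B7.1 counted, was -2.91 and over all features 0.03 on the log2 scale. All 7 had more mRNA in the hrde-1 double mutant, so more mRNA stood beside less small RNA for some names and beside as much or more for others. With replicate 1 of the hrde-1 and replicate 3 of the ergo-1 double mutant both left out, the same 5 names were called lower, beside 6.58% of all features, and the same 1 higher, beside 14%. Summed mRNA of germline, oocyte, intestine, yolk and sperm marker genes did not overlap between these strains either, with the values given at the end, and its part in these differences was not tested.

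W09B7.1 and F07B7.1 measured 24.3, 28.8 and 31.2 CPM of small RNA in the hrde-1 double mutant and 822, 906 and 778 CPM in the ergo-1 double mutant. The log2 fold change was -4.90 ± 0.09 (adjusted p = 1.94e-21), and it was -4.81 without replicate 1 of the hrde-1 double mutant, -4.95 without replicate 3 of the ergo-1 double mutant and -4.86 without both. Only 0.514% of all features had a lower log2 fold change than W09B7.1.

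W09B7.2 measured 127, 157 and 152 CPM in the hrde-1 double mutant and 2500, 2610 and 2260 CPM in the ergo-1 double mutant. Its log2 fold change was -4.08 ± 0.09, with -3.99 and -4.14 when these libraries were left out in turn and -4.05 without both. In the deletion strains it lay between 153 and 211 CPM, so its high value in the ergo-1 double mutant stood apart from all other strains of the set.

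C38D9.2 measured 351, 425 and 388 CPM in the hrde-1 double mutant and 2040, 2230 and 2010 CPM in the ergo-1 double mutant, a log2 fold change of -2.43 ± 0.07 (adjusted p = 2.21e-18), or -2.36 and -2.46 without each of those libraries and -2.39 without both. F55B11.6 measured 40.4, 49.3 and 45 CPM and 327, 373 and 318 CPM, a log2 fold change of -2.91 ± 0.07, or -2.83, -2.96 and -2.87 in the same order. Both were lower in the hrde-1 double mutant than in every deletion strain library.

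ZC15.3 went the other way, with 917, 1290 and 1030 CPM in the hrde-1 double mutant and 514, 552 and 483 CPM in the ergo-1 double mutant. Its log2 fold change was 1.07 ± 0.09 (adjusted p = 1.64e-09), or 1.17 and 1.02 without each of those libraries and 1.13 without both. Without replicate 2 of the hrde-1 double mutant it was 0.91 (adjusted p = 5.94e-10) and under 2-fold, and with scaling to microRNA counts it was 0.06 (adjusted p = 0.951). F16B4.6 measured 539, 610 and 562 CPM against 498, 535 and 519 CPM, a log2 fold change of 0.14 ± 0.06 (adjusted p = 0.0463) that did not reach 2-fold and turned to -0.93 (adjusted p = 0.209) with microRNA scaling. It was 0.18 (adjusted p = 0.0151) without replicate 1 of the hrde-1 double mutant, 0.14 (adjusted p = 0.112) without replicate 3 of the ergo-1 double mutant and 0.19 (adjusted p = 0.0306) without both. That scaling moved the median of all features by -1.19, and the microRNA share itself ranged from 0.163% to 2.88% over the 3 libraries of the hrde-1 double mutant. The 5 names called lower stayed so under it, at -3.48 for C38D9.2, -3.96 for F55B11.6, -5.93 for W09B7.1 and F07B7.1 and -5.12 for W09B7.2.

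**Figure D3:**
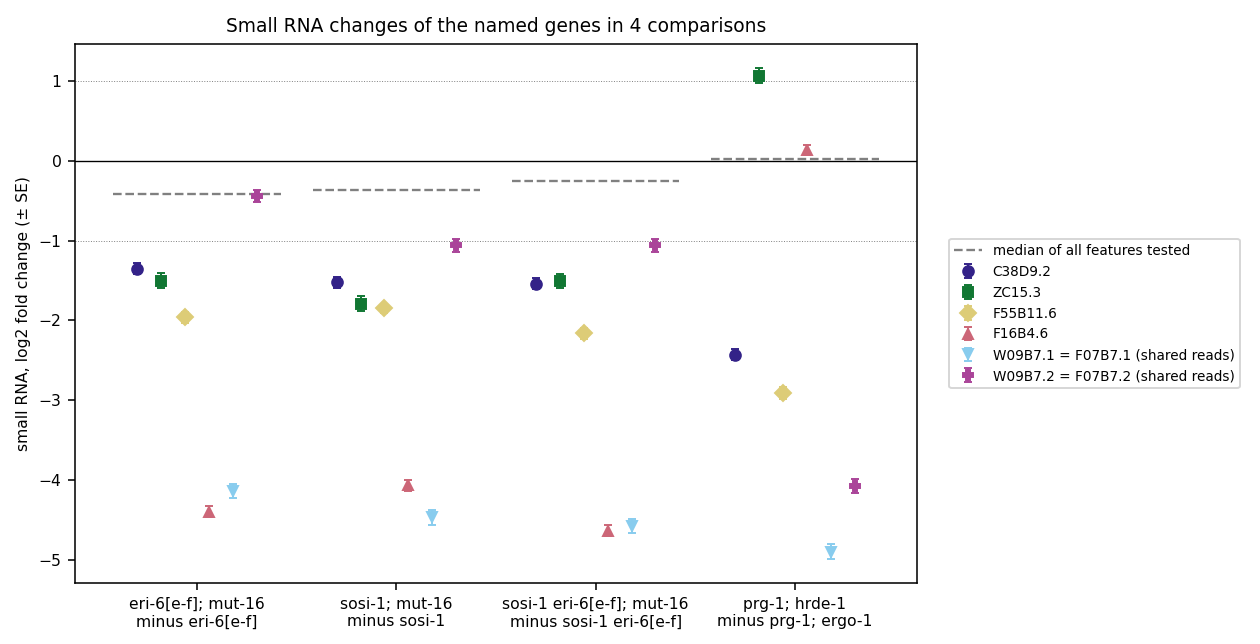
The plot of small RNA changes shows log2 fold changes from edgeR with 1 SE for each gene, for mutation of mut-16 in each of the 3 backgrounds and for the hrde-1 double mutant relative to the ergo-1 double mutant. Dashed lines mark the median of all features tested and dotted lines a 2-fold change. The mut-16 effects are all below 0, from -0.44 to -4.64, while the difference between the double mutants runs from -4.90 for W09B7.1 to 1.07 for ZC15.3.

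Set against the 9 libraries of the deletion strains, the ergo-1 double mutant had more small RNA in every library for 5 of 7 names, beside 35.8% of all features, the exceptions being ZC15.3 and F16B4.6. For small RNA, the hrde-1 double mutant lay below all of them for 4 of 7 names, C38D9.2, F55B11.6, W09B7.1 and F07B7.1, beside 32.3% of all features. For 2 of 7 names, ZC15.3 and F16B4.6, it lay above all of them, beside 34.7%, and for W09B7.2 it overlapped them. Against the 9 mut-16 libraries it lay above for 3 of 7 names, C38D9.2, ZC15.3 and F16B4.6, beside 34.2%. Without replicate 1 of the hrde-1 double mutant, the last count was 6 of 7 names, all but F55B11.6, beside 35.7%. Without replicate 3 of the ergo-1 double mutant that strain lay above the deletion strains for ZC15.3 too, 6 of 7 names beside 35.5%. The other placements named the same genes without either library. The deletion strains carry an intact prg-1 and the double mutants do not, so these placements mix the loss of prg-1 with that of the partner gene.

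The mRNA placements of the same strains were also uneven. In mRNA the hrde-1 double mutant lay below all 9 mut-16 libraries for 2 of 7 names, ZC15.3 and F16B4.6, beside 12.5% of all features. These were also the 2 names whose small RNA was not called lower in that strain than in the ergo-1 double mutant. With only 2 names, a link between the mRNA and small RNA placements was not tested and none is read. The ergo-1 double mutant lay below all 9 deletion strain libraries for 3 of 7 names, W09B7.1, W09B7.2 and F07B7.1, beside 6.51%. The mRNA values of both double mutants took part in the choice of the genes and are not tested.

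**Figure D4:**
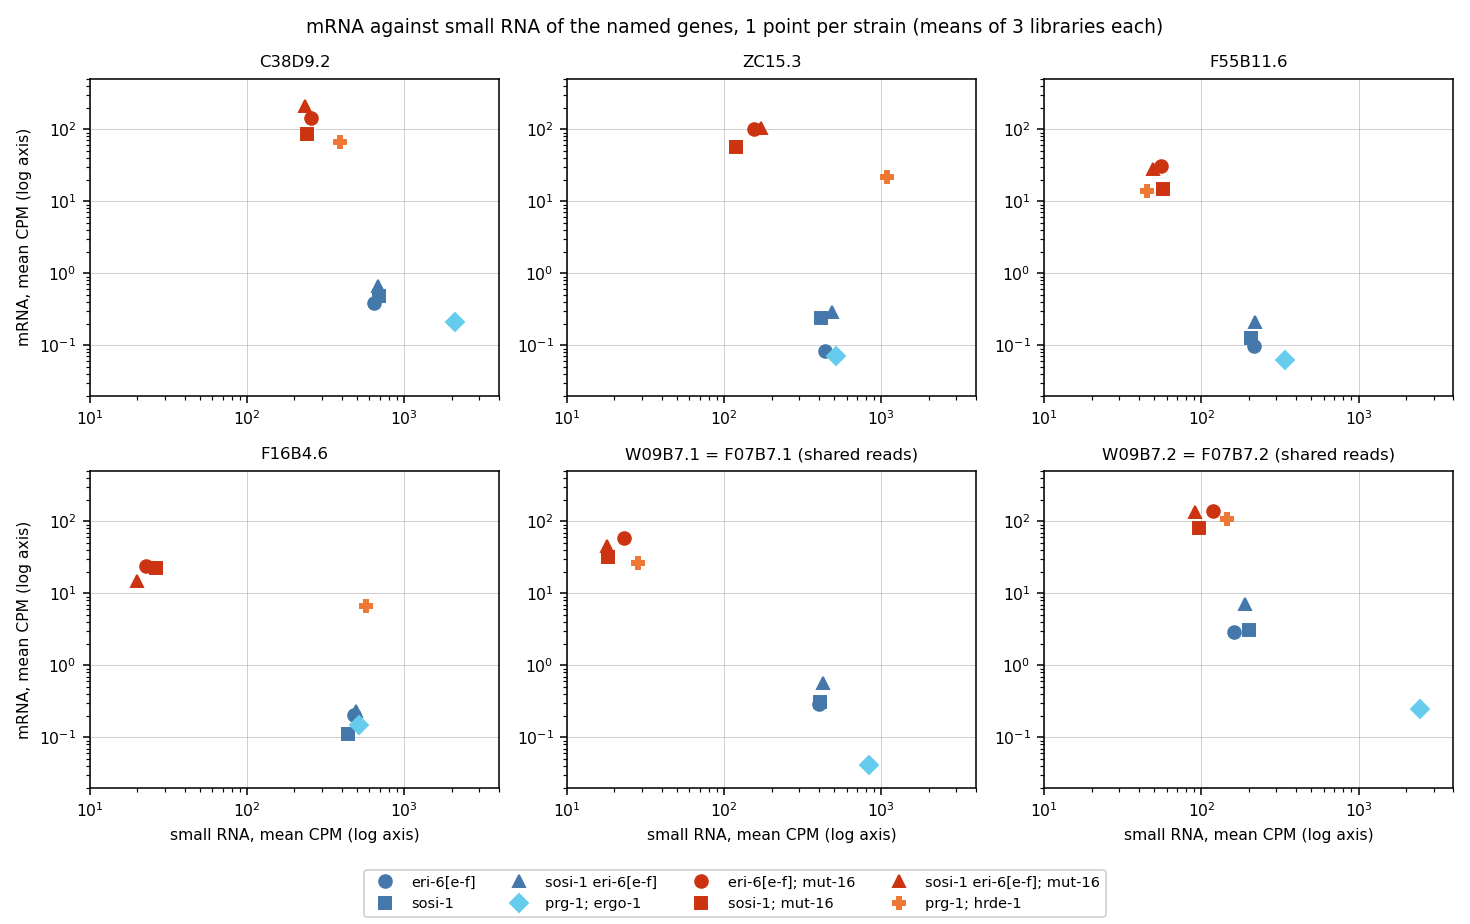
The plot of mRNA against small RNA shows for each gene the mean mRNA CPM of each strain against its mean small RNA CPM, both on log axes, with 1 point per strain. For F16B4.6 the hrde-1 double mutant has 6.66 CPM of mRNA at 570 CPM of small RNA, whereas W09B7.1 has 26.4 CPM of mRNA at 28.1 CPM of small RNA in the same strain.

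The separate set held small RNA of the single mutants and listed 5 of the 7 names, with W09B7.1 and W09B7.2 not among its entries. C38D9.2 measured 2500, 2390 and 2280 CPM in prg-1 and 865, 840 and 782 CPM in ergo-1, a log2 fold change of -1.53 ± 0.07 (adjusted p = 4.19e-10). F07B7.1 measured 2430, 2330 and 2380 CPM in prg-1 and 1140, 922 and 864 CPM in ergo-1, at -1.29 ± 0.09 (adjusted p = 5.03e-08), a call lost with scaling to library size alone (-0.98). These were the 2 of 5 names called lower in ergo-1, beside 15.6% of the 11746 features tested, and none was called higher, beside 30.4%.

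ZC15.3 (-0.86 ± 0.09) and F55B11.6 (-0.56 ± 0.07) were lower in ergo-1 by less than 2-fold. Of all features, 16.9% and 22.4% had a lower log2 fold change than these genes in that order. F16B4.6 overlapped between the strains, at -0.09 ± 0.07 (adjusted p = 0.223). F16B4.6 turned to 0.22 with scaling to library size alone, which moved the median of all features by 0.31. F07B7.2, the entry that shares its reads with W09B7.2, measured 6560, 6610 and 5540 CPM in prg-1 and 712, 627 and 609 CPM in ergo-1, at -3.26 ± 0.10. Summed over the equal pair, W09B7.2 and F07B7.2 had 4910 ± 359 CPM in the ergo-1 double mutant and 290 ± 32.2 CPM in the hrde-1 double mutant (SD, n = 3), and W09B7.1 with F07B7.1 had 1670 ± 130 and 56.2 ± 6.94 CPM. The 2 sets were normalised separately, differ in growth as labelled, and were not tested against each other.

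The 10 genes whose mRNA pattern over the 8 strains was most like the mean of the genes were sought among 8830 features with at least 10 CPM in some strain. By Pearson correlation of log2(CPM + 0.5) they were B0250.8 (0.994), F15D4.5 (0.993), K09H11.11 (0.991), ZC15.10 (0.988), Y23H5A.8 (0.987), F15D4.6 (0.986), ZC15.4 (0.986), F37H8.2 (0.979), F37D6.3 (0.978) and K08F11.1 (0.978). ZC15.4 and F37H8.2 are annotated as pseudogenes. ZC15.4 lies beside ZC15.3 in the gene order, and ZC15.10 lies 1 gene away from it. F15D4.5 and F15D4.6 lie beside each other.

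The small RNA of these genes did not enter their choice. All 10 were called lower in the mean mut-16 effect over the 3 backgrounds, with log2 fold changes from -2.65 for Y23H5A.8 to -6.70 for F37H8.2, beside 41.9% of all features. Between the double mutants, 8 of 10 were called lower in the hrde-1 double mutant, from -1.88 for B0250.8 to -5.01 for K08F11.1, beside 6.7% of all features called lower and 16.9% called higher. The exceptions were ZC15.10, higher by 1.91 ± 0.06 (adjusted p = 4.12e-17), and ZC15.4, at 0.04 ± 0.08 (adjusted p = 0.707). Both lie near ZC15.3, which was higher by 1.07 with TMM scaling but by only 0.06 with scaling to microRNA counts. Values with microRNA scaling are not given for the 10 genes, and a link with position was not tested. Without replicate 1 of the hrde-1 and replicate 3 of the ergo-1 double mutant the same 8 were called lower, ZC15.10 was higher by 1.95 ± 0.07 and ZC15.4 stood at 0.07 ± 0.08 (adjusted p = 0.497). Y23H5A.8 had 38 CPM of mRNA in the hrde-1 double mutant and 37.5 CPM in the mut-16 strains on average.

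The genes of the silencing machinery were followed from lists written from memory with earlier results of these data known. In the mean mut-16 effect on mRNA, beside 13.2% of all features called higher and 4.7% called lower, 1 of 19 genes of mutator foci and 22G-RNA amplification was called higher and 0 lower. This was rde-11, a factor of exogenous RNA interference, at 1.01 ± 0.17, a call that was lost under several settings (0.91 to 1.00). Of the Argonautes 7 of 19 tested were called higher and 0 lower, and the number higher ran from 5 to 10 over the alternatives. They were led by alg-3 (2.38 ± 0.18) and alg-4 (2.17 ± 0.20), the Argonautes of the sperm 26G-RNA pathway, and wago-11 (1.82 ± 0.33). Their levels were low and overlapped. In the deletion strains alg-3 had 0.161 to 3.33, alg-4 0.1 to 4.19 and wago-11 0.0806 to 1.56 CPM. In the mut-16 strains they had 3.11 to 8.33, 1.88 to 7.31 and 0.343 to 2.38 CPM. Of nuclear RNA interference and H3K9 methylation, 0 of 16 were called by edgeR in either direction, the largest being spr-5, a histone demethylase, at 0.77 ± 0.17, emb-4 at 0.74 ± 0.16 and nrde-2 at 0.70 ± 0.15.

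In small RNA, beside 41.9% of all features called lower and 13.3% called higher, 3 of 19 genes of mutator foci and amplification were called lower and 1 higher. Scaling to microRNA counts gave 7 lower and 0 higher. Those lower were rde-11 (-1.85 ± 0.04), mut-16 itself (-1.25 ± 0.03) and smut-1 (-1.02 ± 0.03), the last short of 2-fold with scaling to library size alone (-0.86). Of 20 Argonautes 4 were called higher and 4 lower, with alg-4 at 2.52 ± 0.11, alg-3 at 2.31 ± 0.09 and sago-1 at -2.13 ± 0.13. With microRNA scaling 2 were higher and 7 lower. Of 16 genes of nuclear RNA interference hpl-1, a heterochromatin protein, was called lower (-3.16 ± 0.07) and none higher. The next in size were emb-4 at 0.81 ± 0.03 and set-32, a histone methyltransferase, at 0.78 ± 0.03, and both turned negative with microRNA scaling (-0.41 and -0.44).

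Known targets of the pathway other than the 7 names were measured the same way. They were recalled from the field with earlier results of these data known, so they are no outside check. Of 9 tested in small RNA 8 were called lower and 0 higher, beside 41.9% and 13.3% of all features. Their median was -5.18 beside -0.33 for all features. Among those called lower were Y17D7B.4 (-7.13 ± 0.13), bath-45 (-6.25 ± 0.06) and C18D4.6 (-5.54 ± 0.09). In mRNA 4 of 10 were called higher and 1 lower, beside 13.2% and 4.7% of all features. F15D4.5, which is also among the 10 genes with the most similar mRNA pattern above, led at 6.28 ± 0.20. It had 1.12 to 5.45 CPM in the deletion strains and 121 to 353 CPM in the mut-16 strains. F58H7.5 (4.32 ± 0.18) and bath-45 (3.35 ± 0.17) followed.

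Marker genes of germ cells and other tissues of the animal were also followed over the strains. Over 35 major sperm protein genes the summed mRNA was 39 to 308 CPM in the deletion strains, 532 to 969 CPM in the mut-16 strains, 2691 to 3764 CPM in the hrde-1 double mutant and 1511 to 1785 CPM in the ergo-1 double mutant. None of the 35 was at 0 throughout. Of 33 tested, 33 were called higher in the mean mut-16 effect, beside 13.2% of all features. The 29 genes of small sperm families summed to 40 to 142, 251 to 546, 1406 to 1817 and 657 to 923 CPM in the same order, with 2 at 0 in every library and 23 of 26 tested called higher. The ergo-1 double mutant had a higher sperm gene sum than any mut-16 library, and its mRNA of the 7 names stayed at or below 0.314 CPM. Low mRNA of the 7 names in that strain took part in their choice, and the part of sperm content was not tested.

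In small RNA 30 of 32 major sperm protein genes tested and 23 of 27 of the small sperm families were called higher in the mean mut-16 effect. This was opposite in sign to the 7 names, and 1 and 2 were called lower. Of all features 13.3% were called higher and 41.9% lower. Over the alternatives the numbers called higher ran from 22 to 32 and from 21 to 23. The 6 vitellogenins, yolk proteins made in the intestine, summed to 44503 to 108232 CPM of mRNA in the deletion strains and 28648 to 53120 CPM in the mut-16 strains. They summed to 6989 to 8431 CPM in the hrde-1 double mutant and 29028 to 53902 CPM in the ergo-1 double mutant. In the mean mut-16 effect 1 of 6 was called lower in mRNA, beside 4.7% of all features. In small RNA 6 of 6 were called lower, beside 41.9%.

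The 19 oocyte and eggshell genes summed to 5391 to 17780 CPM in the deletion strains and 5938 to 19568 CPM in the mut-16 strains, with 2 called higher in mRNA and 5 in small RNA. The mRNA count went from 0 to 5 when single libraries were left out, so nothing is read from it, and the small RNA count was 9 with library size and 0 with microRNA scaling. Of all features, 13.2% were called higher and 4.7% lower in the mean mut-16 effect on mRNA. In small RNA these shares were 13.3% and 41.9%, for this list and those that follow. The 17 genes of germline proliferation and meiosis summed to 1469 to 3586 and 1633 to 3884 CPM, with none called by edgeR in mRNA and 5 called higher in small RNA. These became 6 higher in mRNA with library size and 0 higher in small RNA with microRNA scaling. None of the genes in either list was at 0 throughout. For muscle, 2 of 8 were called higher and 2 lower in mRNA and 1 lower in small RNA, with sums of 2013 to 10860 and 1661 to 4656 CPM. Leaving out single libraries gave 1 to 2 higher and 0 to 4 lower in mRNA, so no direction is read for muscle. For intestine, 1 of 8 was called lower in mRNA, beside 4.7% of all features, and 6 of 7 tested in small RNA, beside 41.9%. The intestine sums were 6091 to 17193 and 3772 to 12671 CPM.

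In the hrde-1 double mutant the germline genes summed to 1442 to 2014 CPM of mRNA, against 2236 to 3109 CPM in the ergo-1 double mutant. The oocyte genes summed to 4652 to 6140 and 7740 to 12131 CPM, and the intestine genes to 2891 to 3222 and 3562 to 5659 CPM. For these 3 lists every library of the hrde-1 double mutant lay below every library of the ergo-1 double mutant. Muscle genes overlapped, with 1759 to 2727 and 1537 to 2723 CPM. The part of tissue make-up in the values of the 7 names was not tested.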

How the data were processed

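The deposited values are expected counts per gene and library, which need not be whole, in 30 small RNA and 24 mRNA libraries. Per the submitters' processing notes the authors used cutadapt, HISAT2 and Salmon, with no roles stated. Build, annotation and strandedness are not given in the sources consulted. Reads of near-identical copies can be split or doubled by such counting. Counts were rounded to whole numbers. Features were kept by filterByExpr, scaled by TMM and tested with the quasi-likelihood test of edgeR 4.0.16 in R 4.3.3, in 1 fit for each set and assay, with Benjamini-Hochberg adjustment over all features. DESeq2 1.42.0 was an alternative. The fit was tested on simulated data.

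Neither the 7 genes nor the gene lists are independent of these data: members and lists were chosen with earlier results of these data known. No test is reported for the 7 genes in the mRNA contrasts that chose them. The mean mut-16 effect on mRNA was fitted over all features for the lists. Named besides the 7 and the mutated genes were the 3 genes of each pathway list with the largest change, and the 10 genes with the most similar mRNA pattern. Lists came from memory or name patterns. Of 46003 names, 45682 matched the RefSeq table. Samples with the same replicate number were not treated as pairs, since no comparison had a correlation of deviations above 0.1 in all pairs. Alternatives were other scalings, no filter, DESeq2, the replicate block, summed copies and leaving out each library. Summing W09B7.2 with F07B7.2, and leaving out small RNA replicate 1 of the hrde-1 and 3 of the ergo-1 double mutant together, were added after seeing the data. No sequence is printed.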

Additional observations from a re-analysis of the deposited data

Results flagged for a closer look

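The effect of mut-16 on small RNA differed between the 3 deletion backgrounds by edgeR's test of the difference for 5 of the 7 names by adjusted p alone, beside 23.9% of all features, each by less than 2-fold. For W09B7.2 the highest and lowest log2 fold changes were 0.63 apart, with the smaller fall in eri-6[e-f]. For F16B4.6 they were 0.57 apart and for F55B11.6 0.31 apart, with the smallest fall of both in sosi-1. For W09B7.1 they were 0.44 apart, and for F07B7.1, which shares its reads, also 0.44, with the smallest fall in eri-6[e-f]. Among all features 9.58% passed both the adjusted p and the 2-fold threshold for this difference. The median span over all features was 0.53, so the spans of the named genes lie near it. With scaling to library size alone the adjusted p rose to 0.286 for F55B11.6 and 0.132 for W09B7.1 and F07B7.1, and with scaling to microRNA counts it was 1 for all 7.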

How the results depend on the processing

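Of 957 alternative values of the 7 genes, 933 kept their direction and their side of the thresholds, 9 lost the call, 1 gained it and 14 changed sign, none of the latter from a called value. With scaling to library size alone, the names called fell from 2 to 1 for ergo-1 against prg-1 in small RNA and from 1 to 0 for the sosi-1 mut-16 against the eri-6[e-f] mut-16 strain in mRNA. Leaving out single libraries gave 0 to 1 in the latter (0 without replicate 3 of the sosi-1 mut-16 strain) and 5 to 6 between the double mutants. The cause was not tested.

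Signs turned for F16B4.6 in small RNA to 0.22 (ergo-1 against prg-1, library size) and -0.93 (double mutants, microRNA scaling), and for emb-4 and set-32 to -0.41 and -0.44 under microRNA scaling. In mRNA, F16B4.6 turned to 0.17 in the sosi-1 mut-16 against the eri-6[e-f] mut-16 strain with library size, and to 0.00 and 0.02 without 1 library (range -0.24 to 0.02). In the triple mutant against the eri-6[e-f] mut-16 strain, F55B11.6 turned to 0.05 with library size, and W09B7.2 to 0.05 (relative log expression, DESeq2, or only the strains compared), 0.18 (library size), 0.00 (no filter) and 0.22, 0.01 and 0.00 without 1 library (range -0.13 to 0.22).

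With the replicate block, the number of names called was as without it in all 9 comparisons, such as 6 between the double mutants. Same-numbered libraries did not deviate together, so the block rests on a number alone. In strains with mut-16, 1 to 3 counts stand behind some mRNA levels, which limits their ratios.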
